A study of Mus musculus with 11 samples.

Results

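The genes described here are 174 protein-coding mouse genes whose symbol is Zfp followed by digits alone, out of 48709 genes in the count tables. They were selected on their mean level: the mean over all 11 samples in the authors' normalized table had to be at least 300. The count tables held 364 protein-coding genes with such a symbol, not counting 1 symbol that was left out. Of these, 158 had a normalized mean under 300 and 32 were not among the 16921 genes of the normalized table. This rule reads the mean level over both groups and not the difference between them. The 3 members with the lowest means were Zfp286, at 307 normalized counts, Zfp961, at 312, and Zfp101, at 314. The 3 genes just under the threshold were Zfp944, at 295 normalized counts, Zfp423, at 294, and Zfp958, at 291.

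Most Zfp genes encode C2H2 zinc finger proteins, in which each finger is a short stretch folded around a zinc ion held by a pair of cysteines and a pair of histidines. Runs of such fingers, joined by a conserved linker, read DNA, and in the largest subfamily a KRAB domain ahead of the fingers recruits Trim28 and with it histone methylation and silencing of transposons and imprinted loci. A microRNA lowers messenger RNAs that pair with its seed, nucleotides near its 5′ end, mostly through sites in the 3′ UTR, and the repeated fingers of this family can carry many copies of 1 seed match in the coding sequence.

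RNA was measured by poly(A) RNA-seq in primary hippocampal neurons of CD1 mice, taken at embryonic day 17 and grown in culture. Neuro9 lipid nanoparticles carrying a synthetic mimic of miR-181a-5p (5 samples) or a negative control oligo (6 samples) were added at day in vitro (DIV) 10 for 48 h, and RNA was taken at DIV 12. Per the study's methods, both groups also received ApoE4 with the particles. Both groups carried the same nanoparticles and no group without particles was analysed here, so the control group was itself given an oligo with a sequence of its own. Hippocampi of several embryos were pooled for such cultures and the labels do not say which samples were separate cultures, so p-values measure only the spread between these samples, which may be technical.

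Total counts ranged from 17287168 to 48091231 per sample. Marker lists showed a mixed culture led by neurons: 9 neuron markers summed to 8051 to 8258 CPM of the total count (read counts scaled to a common library size), 6 astrocyte markers to 3956 to 4708, 8 oligodendrocyte lineage markers to 290 to 377 and 7 microglia markers to 13.4 to 14.7. Some lists moved with the groups. The neuron sums overlapped, but Slc17a7 was called lower, at 921 CPM in control and 848 in mimic (log2 fold change -0.14, edgeR adjusted p = 0.0239). Of the 9 neuron markers, 2 had a positive log2 fold change. The astrocyte sum was 4271 to 4708 CPM in control and 3956 to 4240 in mimic, with Slc1a2 the 1 of 6 markers called (2383 CPM in control and 2123 in mimic). Gfap, Aqp4 and S100b were lower without a call, while Slc1a3 (1039 and 1053 CPM) and Aldh1l1 (89.3 and 90.5) were not lower. The sum of 10 fibroblast or vascular markers was 260 to 397 CPM in control and 410 to 546 in mimic, with Cdh5 called higher and Rgs5 lower. The sum of 7 cycling progenitor markers was 192 to 201 CPM in control and 194 to 221 in mimic, with Top2a and Cdk1 called higher. No marker was at 0 in all samples. For the members, CPM values are scaled by TMM-adjusted totals instead. The part of these marker shifts in the results below was not tested, and in bulk RNA fewer cells of a type and less RNA per cell cannot be told apart.

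The sequences that the results turn on are the 2 oligos and the sites in the members that match the mimic. The oligos are given 5′ to 3′ with nucleotides 2 to 8, the seed, in capitals. RefSeq (GRCm38) gives miR-181b-5p, miR-181c-5p and miR-181d-5p the same seed as miR-181a-5p.
miR-181a-5p mimic: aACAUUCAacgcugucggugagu
negative control oligo: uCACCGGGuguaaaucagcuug

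The 7-base match to the mimic is TGAATGT and that to the control oligo is CCCGGTG, both searched on the mRNA strand of GENCODE M21 transcripts (GRCm38), in the longest coding sequence of each gene and in its longest annotated 3′ UTR. The sites below, from the members named most often in the results, are written on the mRNA strand with 10 bases on either side and the match in capitals. The Zfp950, Zfp945, Zfp37 and Zfp120 sites lie in the coding part of the last exon. For Zfp652 its 1 coding site and its 2 sites in the 3′ UTR are shown, all in the last exon.
Zfp950 chr19:61120245-61120251, minus strand, first cysteine of a finger: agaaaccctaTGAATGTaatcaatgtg
Zfp950 chr19:61119825-61119831, minus strand, first cysteine: agaaaccttaTGAATGTaatcaatgtg
Zfp950 chr19:61119312-61119318, minus strand, second cysteine: ataaatgtaaTGAATGTggtaaagcct
Zfp945 chr17:22851691-22851697, minus strand, second cysteine: acaaatgtagTGAATGTggcaaggcct
Zfp37 chr4:62192094-62192100, minus strand, first cysteine: agaaaccataTGAATGTaatgaatgtg
Zfp37 chr4:62192085-62192091, minus strand, second cysteine of the same finger: atgaatgtaaTGAATGTgggatagctt
Zfp120 chr2:150117741-150117747, minus strand, first cysteine: agaaacccttTGAATGTaaccaatgtg
Zfp652 chr11:95763722-95763728, plus strand, coding, outside the fingers: accagcccagTGAATGTgccgccagct
Zfp652 chr11:95766012-95766018, plus strand, 3′ UTR: gttccttttcTGAATGTcgtgacttag
Zfp652 chr11:95771701-95771707, plus strand, 3′ UTR: agcttgctgtTGAATGTtcgtccggag

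The coding sequences of 83 members held 269 matches to the mimic seed, and nearly all of them spelled the same pair of amino acids, most often at a zinc-binding cysteine. In 255 of the 269 the match was read as the codons GAA and TGT, for glutamate and cysteine. The cysteine belonged to the finger pattern in 227 matches, the first cysteine of a finger in 141 and the second in 86. The base after the match was an A, which adds the match to an A opposite the first nucleotide of the microRNA, in 114 of the 141 first-cysteine matches and in 9 of the 86 second-cysteine ones. Of all coding matches, 252 lay in the last exon, and 42 lay outside the fingers or in another frame.

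Matches of this kind were more frequent in the members than in other genes. A coding match was present in 47.7% of members and 12.6% of the other protein-coding genes tested, and 4 or more were present in 30 members (17.2%) against 97 other genes (0.675%). Per kilobase of coding sequence there were 0.725 matches in members and 0.102 elsewhere. Of the 97 other genes, 78 had 3 or more fingers, and 42 were Zfp genes of the same naming outside the set. The highest numbers were 12 in Zfp37, 11 in Zfp40 and 9 each in Zfp62, Zfp950 and Zfp961.

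**Figure D1:**
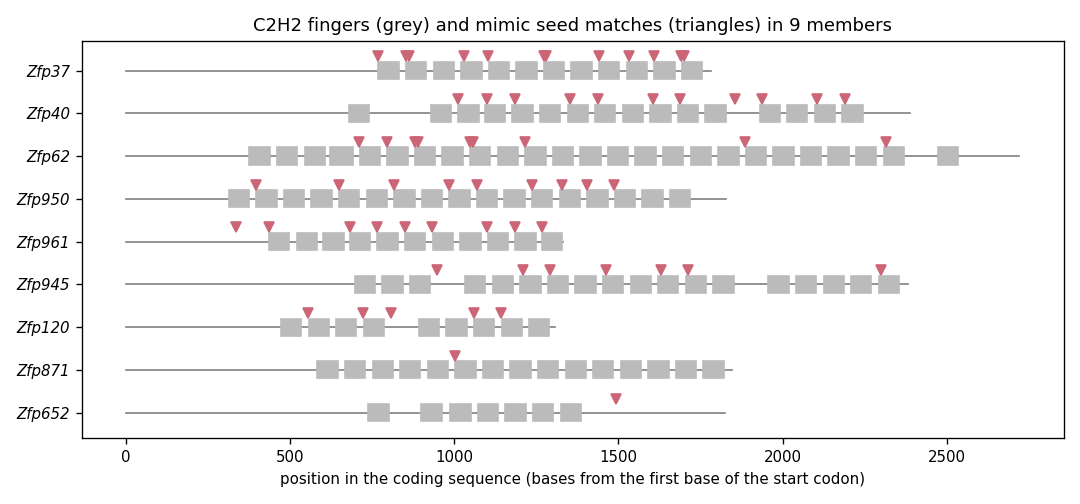
Map of the coding sequences of 9 members, drawn to scale in bases from the start codon, with C2H2 fingers found by pattern as grey boxes and matches to the mimic seed as triangles. Matches lie along the finger array in Zfp37 (12 matches) and Zfp950 (9 matches), while the 1 coding match of Zfp652 lies after its last finger.

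In the 3′ UTR the members were closer to other genes. There were 70 matches in 44 members (25.3%), and 18.3% of the other protein-coding genes tested had one. In 5 members, 12 of these 70 were the same bases as a coding match, since in another transcript of the gene the coding part ends before them. Zfp120 was the clearest case, where 5 of 7 matches in the 3′ UTR were also its 5 coding matches.

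The proteins ranged from 1 finger or none to long arrays. A finger pattern occurred 1785 times in 171 members, with a median of 10 and a highest number of 36 per protein, and no finger of this pattern was found in Zfp365, Zfp330 and Zfp703, the last 2 of which are named for that alone. A KRAB pattern was found in 73 members and a SCAN pattern, which marks a dimerization domain, in 7, with both in 2. The members lay on 20 chromosomes, with 36 on chromosome 7, 21 on chromosome 17 and 14 on chromosome 6.

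In CPM, which rises with the length of a transcript, the members spanned a mean of 12.9 to 227 CPM over the 11 samples, with a median of 28.8. Per kilobase of exon the range was 0.980 to 45.5 CPM, with a median of 5.53. The 5 highest by CPM were Zfp706, which takes part in the exit of stem cells from self-renewal, at 227 CPM, Zfp704 at 172, Zfp106, an RNA-binding protein, at 165, Zfp638, a nuclear factor that silences unintegrated viral DNA, at 150, and Zfp207, a spindle assembly factor, at 147. On the per-length scale Zfp706 was again first, at 45.5 CPM per kb, and Zfp207 was second, at 22.1, while Zfp106 stood at 15.8, Zfp704 at 11.3 and Zfp638 at 9.51. The spread between replicates was small: the median coefficient of variation over members was 4.77% in control and 4.81% in mimic.

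The comparison of mimic with control asks which messenger RNAs differ after miR-181a-5p is added. Of the 174 members, all of which passed the count filter, 2 were called at an adjusted p under 0.05, both lower in mimic: Zfp950 and Zfp652. That is 1.15% of members, beside 2.85% of the 17365 genes tested, and 1.77% called lower and 1.08% higher over all genes. In this fit the share called was thus below that of genes in general, but it rests on 2 genes. DESeq2 called 5 members and 558 of 17365 genes. With no count filter 5 members and 785 of 31595 genes were called, so the order depended on the fit. In the fit used throughout, 28 members (16.1%) passed at an unadjusted p under 0.05, beside 15.7% of all genes. These split into 20 lower (11.5%, beside 8.41% of all genes) and 8 higher (4.6%, beside 7.3%).

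Zfp950, a KRAB zinc finger gene with 17 fingers and 9 coding matches, fell by 14.1%. It lies on the minus strand of chromosome 19 (chr19:61053840-61140840). Its level in mimic was 23.1, 23.0, 21.9, 21.2 and 25.4 CPM in replicates 1 to 5, and in control it was 24.5 CPM at the lowest, 25.97 at the median and 28.9 at the highest. Of the mimic samples, 4 were below every control, and mimic replicate 5 lay inside the control range. The means were 26.6 ± 1.69 CPM in control (SD, n = 6) and 22.9 ± 1.63 in mimic (SD, n = 5), a log2 fold change of -0.22 with a standard error of 0.050 (edgeR, adjusted p = 0.0145). Without mimic replicate 4 the log2 fold change was -0.19 and the call was lost (adjusted p = 0.0724). It had no match in the 3′ UTR and was called in 18 of 19 alternative fits.

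Zfp652, a transcriptional repressor that works with the corepressor Cbfa2t3, fell by 8.14%. It lies on the plus strand of chromosome 11 (chr11:95712673-95835115), and has 7 fingers and 2 matches in the 3′ UTR, both shown above. Its level in mimic was 66.2, 63.5, 66.8, 66.5 and 66.0 CPM in replicates 1 to 5, and in control 68.8 CPM at the lowest, 71.5 at the median and 74.1 at the highest. Every mimic sample was below every control. The means were 71.6 ± 1.99 CPM in control and 65.8 ± 1.32 in mimic, with a log2 fold change of -0.12 and a standard error of 0.030 (edgeR, adjusted p = 0.0217). The call was lost without control replicate 4 (adjusted p = 0.0656), control replicate 6 (0.0593) or mimic replicate 2 (0.0911), with library totals alone in place of TMM scaling (0.0572) and with the replicate number as a block, and was kept in the other 14 of 19 alternative fits.

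**Figure D2:**
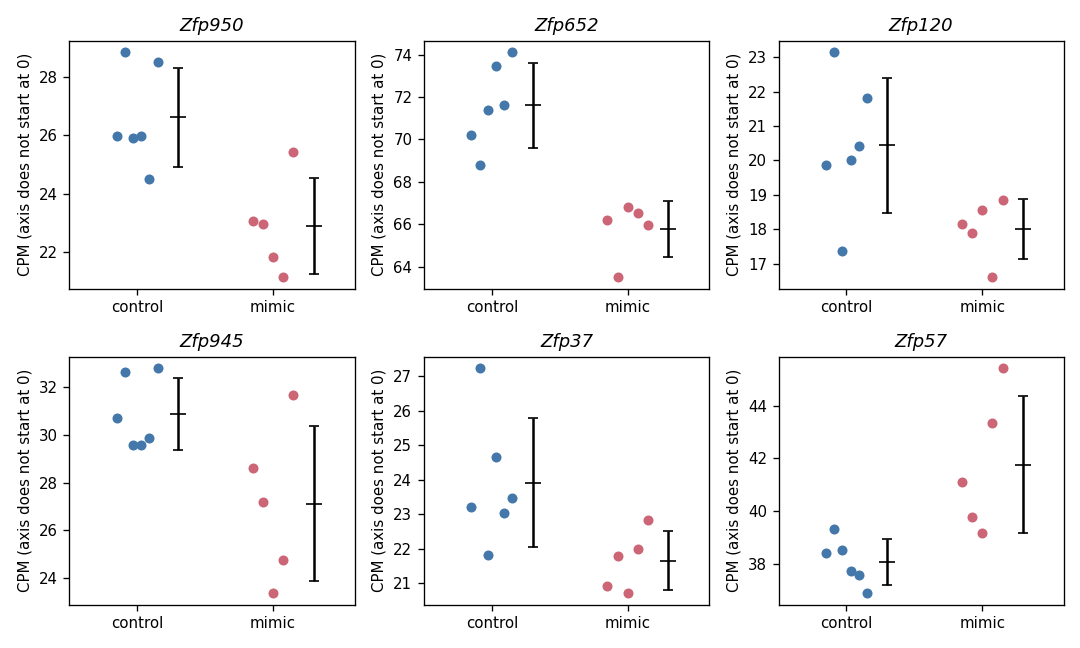
Level of 6 members in each sample in CPM, with control samples in blue and mimic samples in red, and the mean with SD in black beside them; each axis starts above 0. Control and mimic samples do not overlap for Zfp652, while for Zfp950 1 mimic sample at 25.4 CPM lies inside the control range of 24.5 to 28.9 CPM.

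None of the next 6 members by p that were lower in mimic passed the threshold. Zfp871, a KRAB gene with 15 fingers and 1 coding match, was at 83.5, 81.8, 79.6, 79.7 and 81.6 CPM in mimic, and from 82.9 through a median of 87.4 to 89.1 CPM in control. All mimic samples but replicate 1 were below the controls, and the log2 fold change was -0.10 (SE 0.028, edgeR adjusted p = 0.0604). Zfp106 was at 157, 164, 162, 161 and 156 CPM in mimic against 165, 168 and 174 CPM at the lowest, median and highest control. Its groups did not overlap, it holds no match in either region, and its log2 fold change was -0.08 (SE 0.025, edgeR adjusted p = 0.0825).

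The largest differences after Zfp950 were seen in 2 further KRAB genes rich in coding matches, although neither was called. Zfp945, with 18 fingers, 7 coding matches and 2 in the 3′ UTR, was at 28.6, 27.2, 23.4, 24.8 and 31.6 CPM in mimic and at 29.6, 30.3 and 32.8 CPM at the lowest, median and highest control. The mimic samples spread from well below the controls to inside their range, and the log2 fold change of -0.19 had a standard error of 0.058 (edgeR adjusted p = 0.0937). Zfp120, with 9 fingers and 5 coding matches, was at 18.1, 17.9, 18.6, 16.6 and 18.9 CPM in mimic against 17.4, 20.2 and 23.15 CPM in control, where the lowest control sat among the mimic samples. Its log2 fold change was -0.18 (SE 0.057, edgeR adjusted p = 0.0827). Zfp945 was called without mimic replicate 5 (-0.24, adjusted p = 0.00771) and Zfp120 without control replicate 3 (-0.22, adjusted p = 0.0216), and both were called when the count filter was dropped (adjusted p = 0.00166 and 0.0152).

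Zfp37, with the most coding matches of all members, was at 20.9, 21.8, 20.7, 21.99 and 22.8 CPM in mimic and at 21.8, 23.3 and 27.2 CPM in control, so that the groups overlapped. Its log2 fold change was -0.14 (SE 0.050, edgeR adjusted p = 0.138). Zfp24, needed for myelination by oligodendrocytes and a holder of 4 coding matches, stood at -0.11 on the same scale, with a standard error of 0.040 (edgeR adjusted p = 0.125).

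Among members higher in mimic the smallest p belonged to Zfp57, a KRAB protein that keeps methylation at imprinted loci. It was at 41.1, 39.8, 39.2, 43.3 and 45.4 CPM in mimic and at 36.9, 38.1 and 39.3 CPM at the lowest, median and highest control. Only mimic replicate 3 fell within the control range. The log2 fold change was 0.13 with a standard error of 0.038 (edgeR adjusted p = 0.0542), and it was called higher in 6 of 19 alternative fits. The following 5 by p were Zfp516, a brown fat transcription factor, at 0.13, Zfp821 at 0.08, Zfp64 at 0.14, Zfp422 at 0.14 and Zfp512 at 0.07 in log2 fold change, with adjusted p from 0.119 to 0.209 (edgeR). Of these, only Zfp422 passed in any alternative fit, that without mimic replicate 4 (0.19, adjusted p = 0.048). Of these 6 genes Zfp57 alone holds a coding match to the mimic, and Zfp512 holds 1 match in the 3′ UTR.

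Differences were small throughout. The log2 fold changes of the members ran from -0.22 to 0.14, 5 members changed by 1.1-fold or more in either direction and 0 by 1.2-fold or more. The groups did not overlap for 4 members (2.3%, beside 2.89% of all genes and 1.73% in the lower direction). Zfp652 and Zfp106 were lower and Zfp516 and Zfp512 higher.

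The direction leaned lower. With TMM scaling 114 of 174 members (65.5%) had a negative log2 fold change, beside 50.1% of all genes tested, while with library totals alone the share was 47.1%, beside 40.9% of all genes. The median log2 fold change was -0.016 with TMM, beside -0.00015 over all genes, and 0.0022 with library totals, beside 0.019 over all genes, so its sign flips with that scaling. Relative to the median of all genes the members stood at -0.016 under TMM, RLE, upper-quartile and total-count scaling alike. Such scaling shifts all genes by nearly the same amount, so this equality tests nothing. With no count filter, which changes the genes compared, the value was -0.0064. Without 1 sample it ran from -0.023 to -0.016. The summed level of all members was 6862 to 6982 CPM in control and 6732 to 6855 in mimic.

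**Figure D3:**
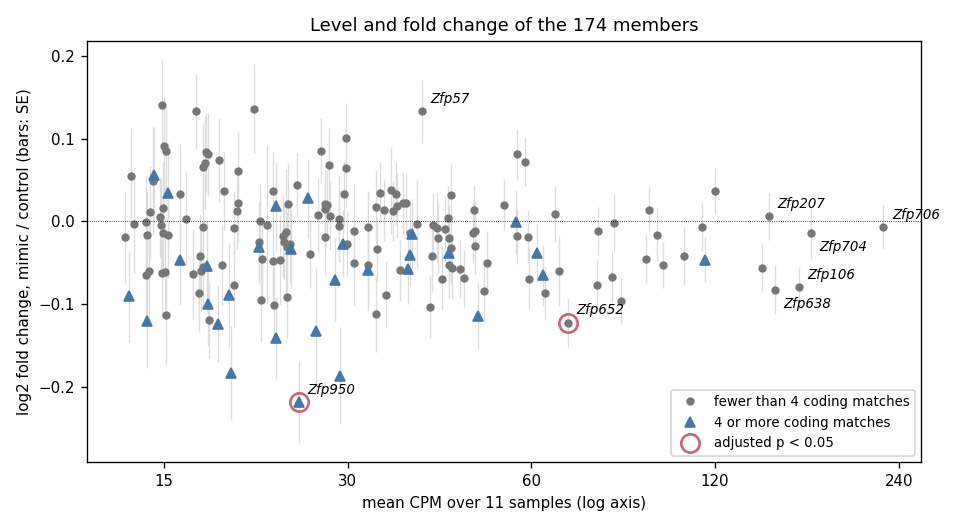
Log2 fold change (mimic over control) of the 174 members against mean CPM on a log axis, with bars for the standard error, triangles for members with 4 or more coding matches and rings for called members. Both called members, Zfp950 and Zfp652, lie below 0, and 26 of the 30 triangles lie below 0.

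Members rich in coding matches had lower fold changes than members without them, given here as a description with no test. The median log2 fold change was -0.0077 in the 91 members with no coding match, -0.036 in the 34 with 1 match, -0.0070 in the 19 with 2 to 3, -0.047 in the 19 with 4 to 6 and -0.059 in the 11 with 7 or more. The steps were not even, since members with 2 to 3 matches stood close to those with none. With upper-quartile factors and with library totals the medians for no match and for 2 to 3 matches turned positive (0.0028 and 0.0034, and 0.011 and 0.012), while the other 3 stayed negative. These scalings shift all genes nearly alike, so they do not test the differences between the groups. In the other protein-coding genes tested, which include 159 Zfp genes of the same naming outside the set, the medians for the same numbers of matches were 0.0018, -0.010, -0.035, -0.045 and -0.096. Other genes with 4 to 6 and 7 or more matches had low median levels, 5.93 and 3.21 CPM, and median standard errors of 0.10 and 0.11. Members with as many matches had 24.2 and 26.6 CPM and standard errors of 0.047 and 0.050.

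Of the 30 members with 4 or more coding matches, 26 had a negative log2 fold change and the median was -0.056. An unadjusted p under 0.05 was reached by 7 of them, all lower (23.3%, beside 8.41% of all genes), and 1, Zfp950, was called (3.33%, beside 2.85% of all genes). The median stayed below 0 in the scaling alternatives (-0.054 with RLE, -0.046 with upper-quartile factors and -0.037 with library totals) and ran from -0.068 to -0.030 when 1 sample was left out, the last without mimic replicate 4. The scaling alternatives shift all genes nearly alike, so they do not test the contrast. Relative to the median of all genes the value was -0.056 in each. Of the 144 members with fewer matches the median was -0.012, and 13 passed lower and 8 higher at that p.

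**Figure D4:**
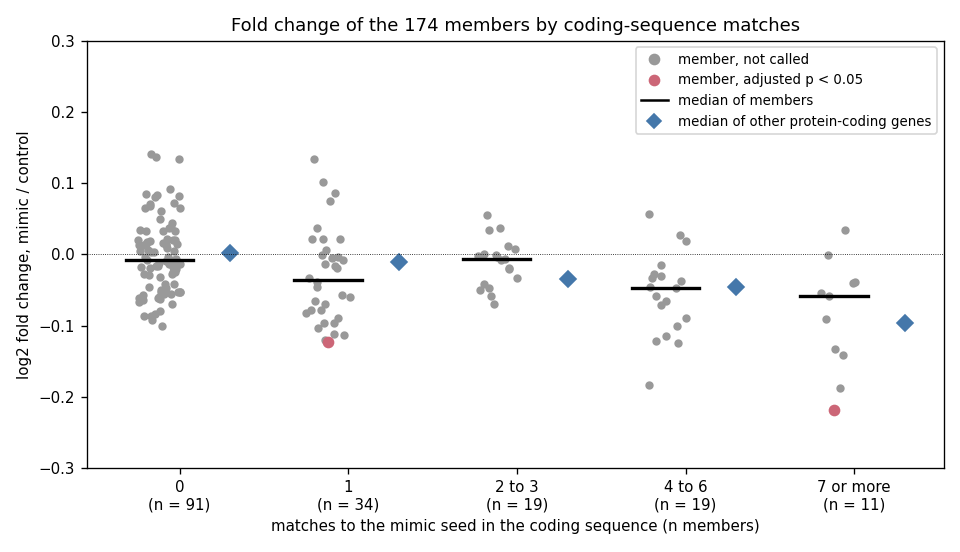
Log2 fold change of each member (points) by the number of matches to the mimic seed in its coding sequence, with the median of members as a black line and that of other protein-coding genes tested as a blue diamond. The median of members is -0.0077 with no match and -0.059 with 7 or more.

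The same members can be followed sample by sample, as the median over the 30 genes of the log2 deviation from the midpoint of the group means. It was 0.034, 0.093, -0.027, 0.016, 0.0057 and 0.076 in control replicates 1 to 6, and -0.012, -0.0081, -0.063, -0.076 and 0.030 in mimic replicates 1 to 5. The groups overlapped: control replicate 3 was below 3 of the 5 mimic samples, and mimic replicate 5 was above 3 of the 6 controls. Control replicate 2, the highest, also had the highest share of mitochondrial counts, at 3.48% against 3.03% to 3.46% in the other samples. Among the mimic samples, replicate 5 was highest in both (3.46%) and replicate 4 lowest in both (3.03%). Not every sample followed, since control replicate 6, at 0.076, had a share of 3.22%. The part of the mitochondrial share in these values was not tested.

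**Figure D5:**
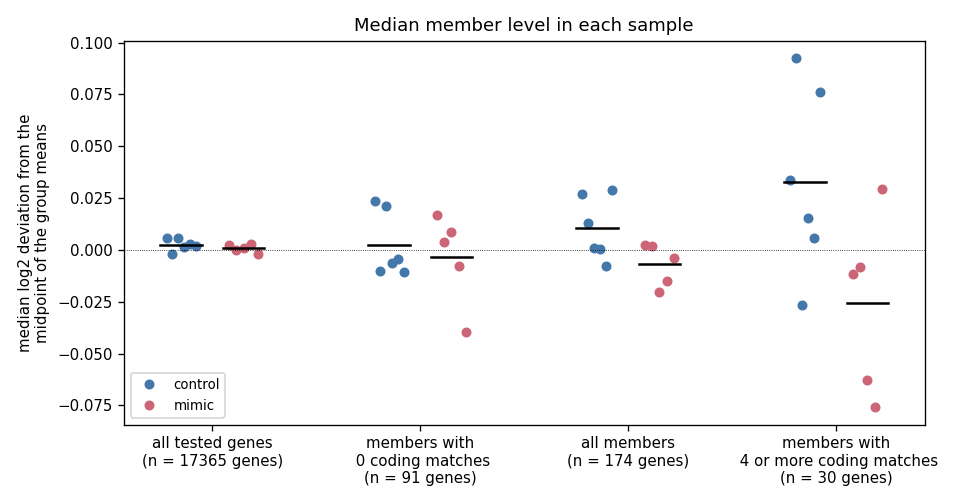
Median log2 deviation of 4 gene sets in each sample from the midpoint of the 2 group means (control blue, mimic red, black line the mean over samples). Samples of the 2 groups overlap for members with 4 or more coding matches, from -0.027 to 0.093 in control and from -0.076 to 0.030 in mimic.

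The contrast was also present among members alike in finger number or domain. Among members with 8 or more fingers, the median log2 fold change was -0.0072 in the 51 without a coding match and -0.054 in the 27 with 4 or more. Among KRAB members it was -0.012 in 22 without a match and -0.059 in 21 with 4 or more. By class alone the medians were close together, at -0.0067 for 0 to 2 fingers, -0.020 for 3 to 7 and -0.019 for 8 or more, and at -0.019 with a KRAB pattern and -0.014 without one. The 7 SCAN members stood at 0.022, with a positive value in 5. With library totals the members without a match turned positive (0.011 among those with 8 or more fingers and 0.0070 among KRAB members), and those with 4 or more stayed negative (-0.036 and -0.040). That scaling shifts all genes nearly alike, so it does not test the contrast. The compared members were not alike in base composition. With 8 or more fingers, median coding GC content was 56.7% without a match and 41.5% with 4 or more. Among KRAB members it was 50.8% and 40.8%. The part of base composition in the contrast was not tested.

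Other words gave smaller contrasts or groups too small to compare. Whether the mimic pairs with these words was not tested, so they do not set the seed match apart. The word TGAGTGT, which spells the same pair of amino acids with 1 base changed inside the seed match, occurred 180 times, and the 11 members with 4 or more had a median log2 fold change of -0.016. Of these 11, 6 held fewer than 4 TGAATGT and had a median of -0.012. The word TGAATGC, which changes the last base, occurred 57 times and never 4 times in 1 member. For the match of the control oligo the 17 members with 1 or more stood at -0.012. Across the 174 members, Spearman's rho of the number of coding matches with the log2 fold change was -0.31 for TGAATGT, -0.27 for its first-base-trimmed form GAATGT, -0.19 for TGAATGC and -0.066 for TGAGTGT. For other properties it was 0.24 with coding GC content, -0.16 with finger number and -0.12 with mean CPM. These are descriptions across genes measured in the same 11 libraries, and genes are not independent replicates.

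By matches in the 3′ UTR, the median log2 fold change was -0.013 in the 130 members with none, -0.026 in the 30 with 1 and -0.039 in the 14 with 2 or more. In other protein-coding genes it was 0.0057, -0.019 and -0.038. Once bases that are also coding matches were left out, the medians of the members were -0.013 in 131 with none, -0.033 in 32 with 1 and -0.013 in 11 with 2 or more. The step from none to 1 match thus remained, and only the place of 2 or more rested on matches counted in both regions. The study's own list of predicted miR-181a-5p targets held 28 Zfp names of this kind and 10 members. Of these 10, none was called by edgeR, 1 (Zfp120) was lower at an unadjusted p under 0.05, DESeq2 called none, and the median was -0.0081. The whole list had 1046 tested genes, of which 72 were called lower and 2 higher (7.07%, beside 2.85% of all genes), with a median of -0.036.

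Of the other listed targets, Zfp704, with 3 matches in the 3′ UTR, had a log2 fold change of -0.01 and Zfp664 of 0.01. Zfp655, with 3 coding matches and 3 in the 3′ UTR, stood at -0.07, and Zfp622, a factor in ribosome assembly, at 0.03. Zfp697 stood at -0.05, Zfp867 at 0.09, Zfp286 at -0.02, Zfp800 at -0.00065 and Zfp869 at -0.0027. All had adjusted p of 0.392 or more by edgeR.

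A list of known roles held 21 members, and edgeR called none of them. Of the 21, 17 had a negative log2 fold change (81%, beside 50.1% of all genes, and 13 with library totals alone), 6 reached an unadjusted p under 0.05 (28.6%, beside 15.7% of all genes), and the range was -0.11 to 0.03. Among regulators of neural development, Zfp365, a Disc1-binding protein, stood at -0.09 (SE 0.032), Zfp292 at -0.08 (SE 0.031), Zfp521, which drives neural differentiation, at -0.09 (SE 0.047), Zfp609, a partner of cohesin loading, at -0.05 (SE 0.029), Zfp462 at -0.02 and Zfp335 at -0.02. Zfp536, a repressor of neuronal differentiation, and Zfp711, a partner of the demethylase Phf8, stood at -0.0077 and 0.0033. All of these had an adjusted p of 0.157 or more by edgeR.

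Members that act on chromatin, RNA or proteins gave similar values. Zfp638 stood at -0.08 (SE 0.030, edgeR adjusted p = 0.15) and Zfp644, which binds the histone methyltransferases Ehmt1 and Ehmt2, at -0.07 (SE 0.031, adjusted p = 0.287). Zfp91, a ubiquitin ligase, stood at -0.06, Zfp148, a GC-box binding factor with 4 coding matches, at -0.05, Zfp598, which marks collided ribosomes, at -0.02, Zfp451, a SUMO ligase, at -0.02, and Zfp281, a stem cell factor, at 0.03. Zfp445, which acts at imprinted loci as Zfp57 does, stood at -0.01 and Zfp207 at 0.01. Zfp410, known as a dedicated activator of Chd4, stood at -0.04, and Chd4 itself at -0.02. Without 1 sample Zfp281 ran from 0.011 to 0.066, Zfp410 from -0.057 to -0.021 and Zfp148 from -0.057 to -0.029.

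Of 24 tested cofactors through which KRAB proteins act, 1 was called lower and 1 higher (8.33%, beside 2.85% of all genes), and 16 had a negative log2 fold change. The histone methyltransferase Ehmt2 was called lower, at -0.12 (SE 0.031, edgeR adjusted p = 0.0308), and Uhrf1, which guides maintenance of DNA methylation, was called higher, at 0.34 (SE 0.082, adjusted p = 0.0221) with a mean of 5.75 CPM. Trim28 itself stood at 0.0056 (SE 0.025), Setdb1, the methyltransferase that it recruits, at -0.0086 (SE 0.031) and Cbx5, a heterochromatin protein, at -0.07 (SE 0.024, adjusted p = 0.119).

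In related zinc finger genes outside the set 1 gene was called in each of 3 lists, and 2.85% of all genes were called. Of 159 tested Zfp genes of the same naming (0.629%), the 1 called was Zfp930, lower in mimic, which holds 14 coding matches, at 10.7 ± 1.11 CPM in control and 8.79 ± 0.479 in mimic (log2 fold change -0.29, SE 0.069, edgeR adjusted p = 0.0197). Of 26 Zbtb genes 1 (3.85%) was called lower, Zbtb4, with 3 matches in the 3′ UTR (-0.13, adjusted p = 0.00851), and of 11 Zscan and Zkscan genes 1 (9.09%), Zkscan1, with 3 coding matches and 1 in the 3′ UTR (-0.10, adjusted p = 0.0393). The 16 Zfp genes with a letter after the digits had 0 calls by edgeR, with 3 lower and 0 higher at an unadjusted p under 0.05 and a median of -0.047.

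Some reads cannot be assigned to 1 member alone. Of the 174 members, 75 share at least one 50-base stretch of transcript with another gene and 7 share over 10% of theirs, up to 25% in Zfp414, which is named for that value alone. Among the genes above, Zfp869 (9.35%), Zfp706 (7.83%) and Zfp422 (7.52%) share most, while Zfp950 shares 1.07% and Zfp652 0.78%, so counts of the first 3 are the less certain. The authors' strand and multi-mapping settings are not given in the sources used here.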

How the data were processed

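Libraries were poly(A)-selected and sequenced as 50-base single-end reads. Per the labels and the study's methods the authors checked reads with FastQC (0.11.5), aligned them to mm10 with STAR (2.5.2b) and counted them per Ensembl gene with featureCounts of Subread (1.5.1). The annotation release is not given in the sources used here. The authors deposited raw counts per gene, 1 table per sample, and a table of normalized signal, in which each column equals the counts divided by 1 size factor (largest relative deviation 4.95e-10). The raw counts gave all main results and the normalized signal chose the members and served an alternative fit. Samples were grouped by their labels. A column of the deposited tables could be assigned to every sample, with 0 left over, and 0 rows named no gene.

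The filter required 5 or more counts in 50% or more of the samples, and the genes left were tested with edgeR 4.0.16 (R 4.3.3): TMM scaling, robust quasi-likelihood fit, group as the sole term, two-sided, Benjamini-Hochberg adjustment over all 17365 genes, called at an adjusted p under 0.05. CPM of members and other tested genes used TMM-scaled totals, and marker sums and the limit for a count of 0 used library totals. The study used DESeq2, fitted here as an alternative (1.42.0), and limma (3.58.1) was run on log2 of the normalized signal with 1 added. Other alternatives were the scaling, the count filter, the level floor, a replicate block and leaving out each sample. The test was checked on simulated data. Where a sample has no count, up to 3 counts remain possible, or between 0.0624 and 0.174 CPM depending on the library. This limit covers counting error only.

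Coding sequences, positions and 3′ UTRs came from GENCODE M21 on GRCm38. Fingers, KRAB and SCAN patterns were searched in translated coding sequences, since no protein table was at hand. Replicates of a group correlated at 0.996 or more and all differed beyond sampling noise (smallest chi-square per degree of freedom 1.23). The 46 named members were set by rule: those called, the next 6 lower and 6 higher by p, the 5 highest by CPM, the 5 with most coding matches, the 3 nearest the floor, the predicted targets and a list of known roles. The members, lists and rules were chosen with earlier results of these data known. 1 symbol is not reported here.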

Additional observations from a re-analysis of the deposited data

Results flagged for a closer look

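Among 106 series of 5 or 6 samples (the 46 named members in each group and library measures), 3 held 1 sample apart from the rest of its group by Dixon's 95% criterion, where chance gives about 1 in 20, or 5.3. Zfp652 stood at 6.00 on the log2(CPM + 0.5) scale in mimic replicate 2, against 6.054 to 6.072 in the other mimic samples, and without that sample Zfp652 was not called. Zfp512 stood at 5.819 on the same scale in control replicate 6, against 5.848 to 5.865 in the other controls. The mitochondrial share of counts was 3.48% in control replicate 2 against 3.20% to 3.26% in the other controls.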

How the results depend on the processing

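The number of members called was 2 with TMM scaling and moved to 5 with DESeq2 (Zfp106, Zfp57, Zfp652, Zfp871 and Zfp950), 5 with no count filter (Zfp120, Zfp57, Zfp652, Zfp945 and Zfp950), and 1 of 51 members with a level floor of 1000. With a replicate block it was 1 (Zfp950). Leaving out 1 sample gave 1 to 4 calls, among all members as among the named ones, with 4 to 9 members not overlapping, 55.75% to 65.52% of members lower and medians from -0.023 to -0.012. The share lower was 56.3% with upper-quartile factors, 47.1% with library totals and 80.4% with a floor of 1000. The median was 0.0022 with library totals and -0.032 with a floor of 1000. The cause of these moves was not tested, except that total-count scaling moves all genes and a higher floor keeps fewer members.

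Equal replicate numbers did not go with shared deviations. Deviations of same-numbered samples correlated at -0.053 to 0.049 over 5 pairs, against -0.12 to 0.12 for other pairs. The block left Zfp652 at -0.11 (adjusted p = 0.0825).

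Of 368 named-gene results under alternatives other than leaving out a sample, 337 kept direction and side of the threshold, 2 lost the call, 8 gained it and 21 changed sign, all of the last in genes whose reported log2 fold change lay from -0.019 to 0.0033. With library totals these were Zfp706 (0.012), Zfp704 (0.0049), Zfp286 (0.00011), Zfp800 (0.018), Zfp869 (0.016), Zfp445 (0.011), Zfp451 (0.0025), Zfp536 (0.011) and Zfp335 (0.00076). With upper-quartile factors they were Zfp706 (0.0035), Zfp800 (0.0099), Zfp869 (0.0079), Zfp445 (0.0031) and Zfp536 (0.0028). Zfp800 was at 0.0013 with DESeq2 and 0.0014 with RLE, Zfp711 at -0.0014 with no filter and -0.0046 with limma, and Zfp869 at 1.97e-05 with limma and, with the block, 0.028, where Zfp445 was at 0.0075. Of 506 results without 1 sample, 457 kept both, 4 lost a call, 6 gained one and 39 changed sign. Their ranges were Zfp207 -0.017 to 0.021, Zfp286 -0.046 to 0.0088, Zfp335 -0.040 to 0.012, Zfp445 -0.018 to 0.0089, Zfp451 -0.029 to 0.019, Zfp536 -0.036 to 0.019, Zfp598 -0.041 to 0.00027, Zfp704 -0.024 to 0.020, Zfp706 -0.016 to 0.015, Zfp711 -0.054 to 0.044, Zfp800 -0.036 to 0.036 and Zfp869 -0.027 to 0.030. The smallest SE of a member was 0.025 on the log2 scale, which limits the differences detectable at this depth and number of samples.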
